A study of Rattus norvegicus with 20 samples.

Results

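Epithelial cells of the trachea that had been recovered from skin grafts and cultured again were compared with recovered cells of 4 other tissues, namely oral mucosa, vagina, oesophagus and foot pad. The 2 arrays labelled as trachea cells after transplantation were the members, out of 20 arrays in the series, and they were set against the mean of the 4 other after groups, which hold 8 arrays. The comparison ran over 14506 genes, each measured by 1 probe set, and the members were chosen by label alone. All cells came from Sprague-Dawley rats that carry an act-EGFP transgene (green rat CZ-004), which makes them express the enhanced green fluorescent protein (EGFP) constitutively, and the tissues were taken at postnatal day 200. There was no untreated or non-transgenic group. The before groups, again 2 arrays per tissue, are cells cultured from the dissociated tissue on a feeder layer of irradiated mouse 3T3-J2 fibroblasts. The after groups are the same kinds of cells after transplantation into newborn mouse skin that was then grafted to nude mice, which lack T cells, and after the EGFP-positive part of the graft had been dissociated and cultured once more. In every group EGFP-positive cells were sorted, so mouse cells were left out while any rat cell type could be kept. The 2 arrays of a group are duplicate cultures, so p-values here measure the spread between cultures and not that between rats or grafts.

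The lining of the trachea is a pseudostratified epithelium in which basal cells, marked by Tp63, Krt5 and Krt14, renew secretory and ciliated cells that reach the lumen. Cells facing a lumen in such epithelia carry the simple-type keratins Krt7, Krt8, Krt18 and Krt19. The oral mucosa, vagina and oesophagus are stratified linings whose upper layers make Krt4 and Krt13, whereas foot pad epidermis makes Krt1 and Krt10 above its basal layer. Comparing the recovered cells therefore asks in which genes tracheal cells still stood apart from cells of stratified origin after both had passed through a skin environment.

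The correlation between duplicates (Pearson's r over probe sets) was 0.991 to 0.996. It was lowest in oral mucosa before transplantation. There the SD of the difference between duplicates was 0.328, against 0.21 to 0.273 in the other groups. The values of that group enter the before differences and their changes. Values are log2 RMA values, in which a difference of 1 is a 2-fold difference, and 40% of probe sets had a mean under 4.77. Low values cannot be placed above or below background, since the table has no detection calls, and a difference measured against values at background is a lower bound. The trachea label was checked against airway genes. Nkx2-1, the transcription factor that specifies the lung and trachea field, was measured at 6.56 and 6.77 in recovered trachea cells and between 5.89 and 6.48 (median 6.14) in the other 8 arrays. Its difference of 0.50 ± 0.14 (SE, adjusted p = 0.0272 by limma) was under 2-fold. Foxa1, another foregut factor, stood at 5.24 and 4.87 against 4.21 to 4.51 (median 4.43), a difference of 0.67 that was also under 2-fold. The markers of mature airway cells were at the level of the other tissues, with Scgb1a1 (club cells) at 3.44 and 3.36 against 3.34 to 3.77, and Foxj1 (ciliated cells) at 6.25 and 6.12 against 6.09 to 6.38. Krt14 was at 13.13 and 13.14 in recovered trachea cells and at 13.08 to 13.36 in the others. Tp63 stood at 9.13 and 9.12 in the trachea arrays, below the 9.45 to 10.05 of the others, and its difference of -0.61 was under 2-fold.

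In the titles of the arrays a Roman numeral I stands in the recovered trachea cells, and III or IV in the other recovered cells. The labels leave these numerals unexplained, and Roman numerals are how the study gives passages. If that is what they are, trachea origin and a lower passage cannot be told apart in any comparison of the after groups. The titles of the recovered cells also hold a code the labels do not explain, RC4 in trachea, oesophagus and foot pad and RC5 in oral mucosa and vagina. Against the RC4 tissues alone 213 genes were higher and 163 lower, of which 168 and 112 were among the genes called against all 4.

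Recovered trachea cells differed from the mean of the others in 365 of 14506 genes or 2.52% (limma, adjusted p under 0.05 and more than 2-fold), with 205 higher (1.41% of all genes) and 160 lower (1.10%). Both trachea arrays lay above all 8 others in 6.76% of all genes and below them in 6.75%. Called genes with both arrays above numbered 174 (1.20%), and 122 (0.841%) had both below. Of the 205 higher genes, 69 passed the test against each of the other tissues taken singly (0.476% of all genes), another 69 passed against 3 tissues, 53 against 2 and 14 against 1. Of the 160 lower genes, 29 passed against all 4 tissues (0.200%), 69 against 3, 50 against 2 and 12 against 1. Taken singly, the share of all genes higher in trachea was 2.31% against oral mucosa, 2.40% against vagina, 1.99% against oesophagus and 2.61% against foot pad, and the share lower was 1.85%, 1.75%, 1.66% and 2.72%. In such cultures fewer cells of a type and less RNA per cell cannot be told apart. The error in these counts is that between duplicate cultures. When the 4 tissue means served as the samples, so that the error was the spread between tissues, 3 genes were still past the test, all higher in trachea. They were Crip1 (adjusted p = 0.00206), Sulf1 (0.0224) and Krt7 (0.0304).

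The largest differences were those of Tspan8 and Crip1, followed at some distance by C3h15orf48, Arhgdib and Krt4. Tspan8 encodes a tetraspanin of the cell surface that is known from glandular epithelia. It was measured (probe set 10895499) at 11.83 and 11.82 in the recovered trachea arrays and between 3.80 and 9.22 (median 5.71) in the other 8. The difference was 5.68 ± 0.15 (SE, adjusted p = 9.77e-12), which is 51.1-fold. The other tissues were themselves spread wide, with oesophagus at 9.08 and 9.22 and oral mucosa at 4.38 and 3.80, so the difference ran from 2.67 against oesophagus to 7.74 against oral mucosa. The oral mucosa values lie under 4.77, in the dimmest 40% of probe sets, where a measured difference may understate the true one. Crip1 encodes a small LIM-domain protein first described in the intestine. Its values (probe set 10887622) were 10.88 and 10.75 in the trachea arrays and 5.03 to 5.26 (median 5.19) in the others, a difference of 5.65 ± 0.12 (adjusted p = 1.7e-12) or 50.2-fold. Here the 4 other tissues lay within 0.23 of each other, and the difference was 5.59 to 5.77 against each of them.

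**Figure D1:**
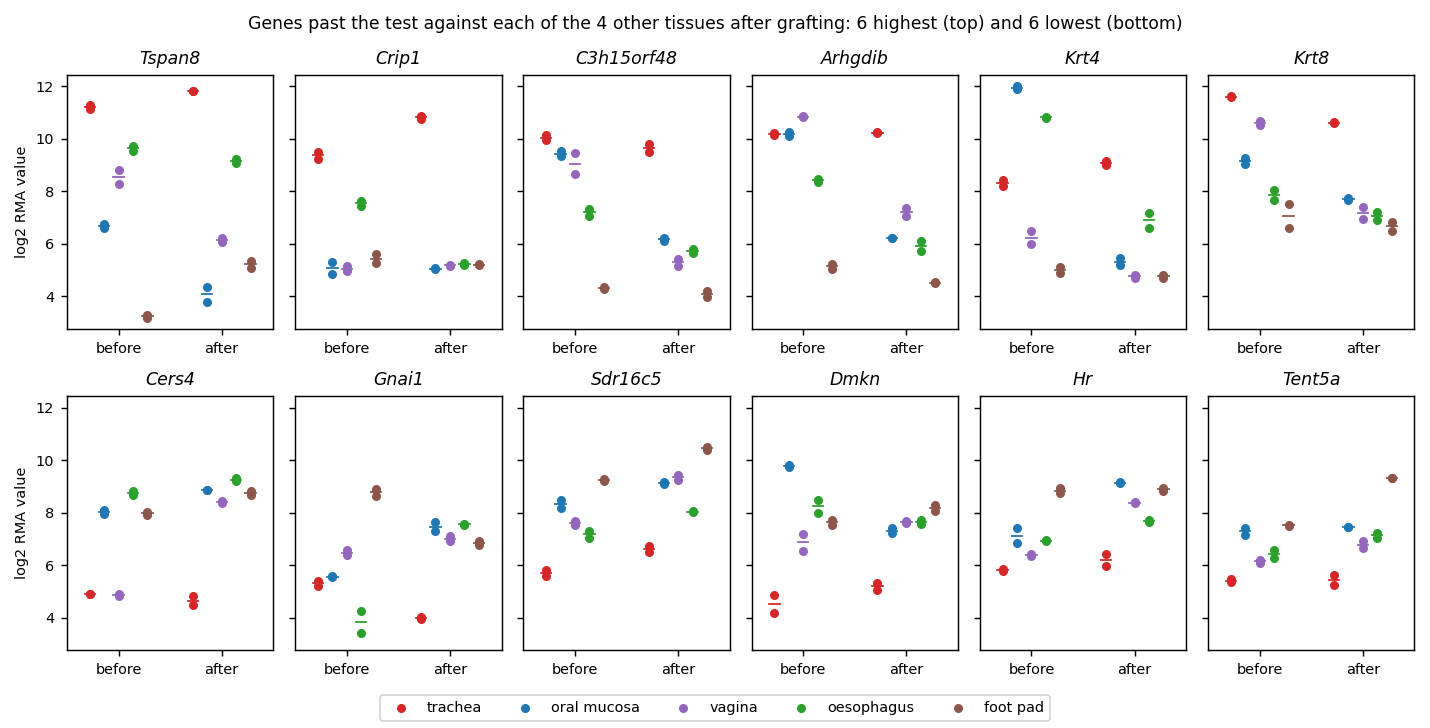
Log2 RMA values (vertical axis) of 12 genes before and after transplantation (horizontal axis), with 1 point per array, 1 colour per tissue and a bar at the mean of each pair. The top row holds the 6 genes with the largest positive differences among those past the test against each other tissue after recovery, the bottom row the 6 with the largest negative ones. In the after columns both trachea points lie outside the range of the other 8, and in the before columns of Krt4, Arhgdib, Cers4 and Gnai1 they do not.

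Krt4, a keratin of the upper layers of stratified mucosae, was the fifth gene in order of size. It stood (probe set 10907501) at 9.0 and 9.16 in recovered trachea cells and at 4.70 to 7.18 (median 5.01) in the others. The difference of 3.64 ± 0.14 (adjusted p = 7.62e-10) was 12.5-fold, and oesophagus at 6.63 and 7.18 was the nearest tissue. Before transplantation the trachea arrays were at 8.43 and 8.20, inside the range of 4.91 to 12.01 of the other tissues. Oral mucosa had then been at 11.90 and 12.01 and oesophagus at 10.85 and 10.81, so these tissues were above trachea before transplantation and below it afterwards.

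The other genes among the 15 largest positive differences covered several roles. C3h15orf48, the rat counterpart of a mitochondrial protein gene induced in inflammation, was at 9.51 and 9.79 against 3.99 to 6.23 (median 5.55), a difference of 4.32. Arhgdib was at 10.25 and 10.23 against 4.51 to 7.37 (median 6.16), a difference of 4.27. Sulf1, an extracellular enzyme that removes sulfate groups from heparan sulfate, was at 6.92 and 7.08 against 3.98 to 4.25 (median 4.10), and its difference was 2.80 to 2.99 against each of the 4 tissues. For these 3 genes no other recovered array came within 2 log2 units of the trachea arrays. Bmx (a Tec family tyrosine kinase, 3.46), Clca4l (a member of the CLCA family, 3.44), Grb14 (an adaptor of receptor tyrosine kinases, 3.04), Gipc2 (a PDZ-domain protein, 2.87), Tgfb2 (a TGF-beta ligand, 2.81) and Elf3 (an epithelial ETS transcription factor, 2.70) followed. With Krt8, Krt19 and Prom1, described below, all 15 passed the test against each of the 4 tissues.

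The 15 largest negative differences were taken among called genes with both trachea arrays below all 8 others. Cers4, a ceramide synthase, led them, at 4.46 and 4.83 in the trachea arrays and 8.35 to 9.33 (median 8.85) in the others. Its difference was -4.17 ± 0.09 (adjusted p = 2.87e-12), or 17.9-fold lower in trachea. Gnai1, an inhibitory G protein subunit, was at 3.95 and 4.03 against 6.77 to 7.65 (median 7.19), a difference of -3.22. Both trachea arrays thus lay more than 2.7 log2 units below every other recovered array in both genes. Sdr16c5, a retinol dehydrogenase expressed in epidermis, was at 6.72 and 6.49 against 8.0 to 10.49 (median 9.19), a difference of -2.63. Tent5a, a poly(A) polymerase, was at 5.61 and 5.26 against 6.66 to 9.33 (median 7.33), a difference of -2.24. These genes, together with Dmkn, Hr, Slc6a6 (the taurine transporter, -2.17) and Glipr1 (-2.12), passed the test against each of the other tissues.

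In the other 7 genes of that set the distance depended more on the tissue. Il36rn, the antagonist of the IL-36 receptor, was at 3.93 and 3.89 in trachea, at 4.23 and 4.47 in oesophagus and at 10.08 and 10.15 in foot pad. Plod2, a lysyl hydroxylase of collagen, was at 4.07 and 4.01 in trachea, at 4.30 and 4.07 in foot pad and at 9.18 and 9.11 in oral mucosa. The trachea arrays were thus lowest in both genes but came close to the arrays of 1 other tissue. Penk (proenkephalin, -2.37), Ppbp (a CXC chemokine, -2.31), Moxd1 (a copper monooxygenase, -2.20), Fkbp9 (a prolyl isomerase of the endoplasmic reticulum, -2.16) and Il36g (an IL-36 cytokine, -2.02) completed the set.

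The genes of simple epithelium formed the group that stood highest in recovered trachea cells. Of 19 measured genes in this list 8 were higher and 0 lower, beside 1.41% and 1.10% of all genes, and the median difference of the list was 0.83 against -0.02 over all genes. The 8 were Tspan8, Krt8, Krt19, Prom1, Elf3, Krt7, Ehf and Krt18, and each passed against every other tissue. Tspan8 had been picked with earlier results of these data known, so its call is not a separate finding. Krt8 was at 10.63 and 10.60 against 6.51 to 7.74 (median 7.08), a difference of 3.46 ± 0.19 (adjusted p = 2.16e-08). Krt19 was at 8.95 and 9.03 against 4.92 to 7.53 (median 5.32), a difference of 3.27, with foot pad the nearest tissue. Krt7 was at 10.32 and 10.42 against 7.51 to 8.03 (median 7.64), a difference of 2.69. Krt18, which pairs with Krt8, was at 7.06 and 6.79 against 5.10 to 6.0 (median 5.61), a difference of 1.36. That call rests on the brightest of 3 probe sets, and the mean of the 3 gave 0.57, under 2-fold. In 10 of the 19 list members both trachea arrays lay above all 8 others, these 4 keratins among them, beside 6.76% of all genes. Prom1, which encodes the membrane protein CD133, was at 7.11 and 7.06 against 3.66 to 4.74 (median 4.51), and Ehf, an ETS factor like Elf3, at 9.69 and 9.83 against 7.74 to 8.54 (median 8.15). The junction and adhesion genes of the list had smaller differences that were not past 2-fold, such as Epcam at 0.88 and Cldn3 at 0.83.

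**Figure D2:**
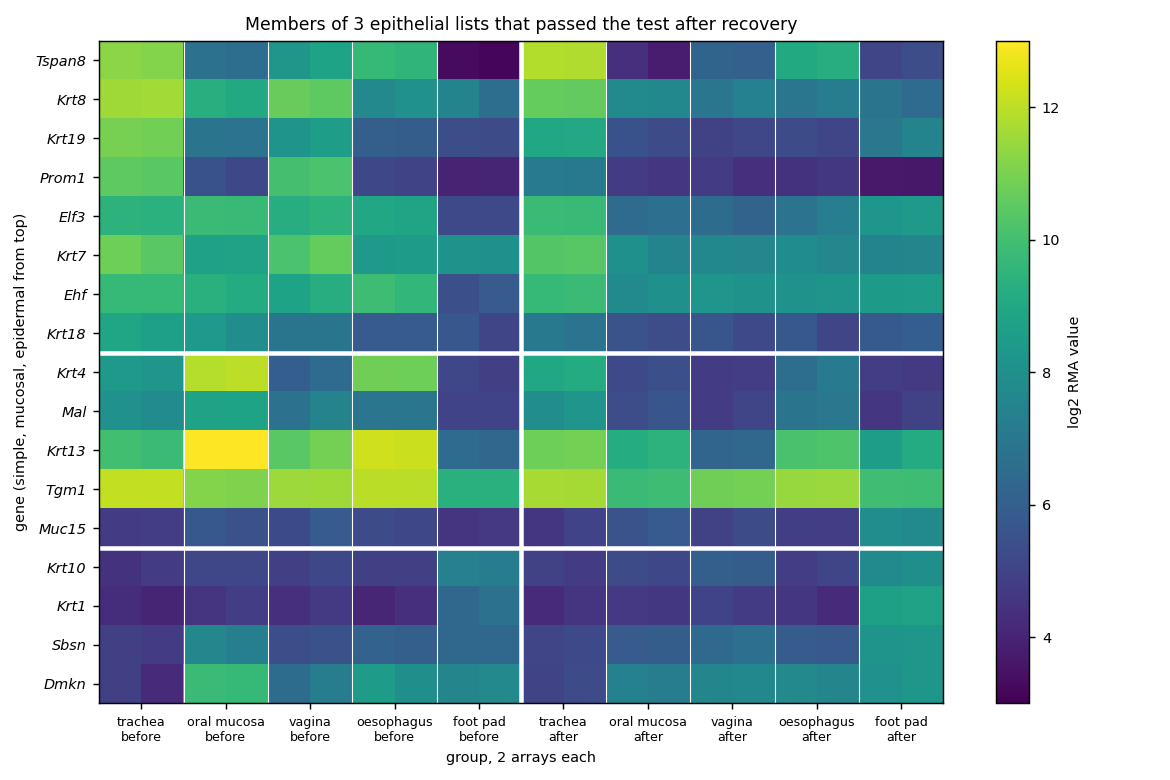
Log2 RMA values (colour) of the members of 3 gene lists that passed the test after recovery, with genes in rows (simple epithelium, mucosal differentiation and epidermal differentiation, from the top) and 20 arrays in columns, 2 per group, before on the left and after on the right. Among the after columns the simple epithelium rows are brightest in trachea, Tspan8 being at 11.83 and 11.82 there, and Krt1 and Krt10 are bright in the foot pad columns.

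The same list was already higher in trachea cells before transplantation. Then 10 of 19 members were higher and 1 lower, beside 1.08% and 0.813% of all genes, with a median difference of 1.11. Averaged over the 19 genes, the trachea arrays were at 9.10 and 9.02 before and 8.49 and 8.50 after, while the other arrays were at 6.30 to 8.48 (median 7.90) before and 6.74 to 7.37 (median 7.0) after. The trachea arrays were thus the highest at both stages and did not overlap with the others. Within the trachea cells 4 members fell (0.972% of all genes fell and 0.627% rose) after transplantation, among them Prom1, which went from 10.52 and 10.43 to 7.11 and 7.06 (-3.40, adjusted p = 4.16e-09), and Krt19, which went from 10.94 and 10.86 to 8.95 and 9.03 (-1.91). In the mean of the other tissues 6 members fell (0.689% of all genes fell and 0.276% rose), again with Prom1 (-1.80) among them. The tissues did not move alike. The list average went down in oral mucosa (8.18 and 8.04 to 6.79 and 6.74), vagina (8.28 and 8.48 to 6.91 and 6.90) and oesophagus (7.76 and 7.69 to 7.10 and 7.13). In foot pad it went up, from 6.30 and 6.33 to 7.30 and 7.37.

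Genes of stratified mucosa split. Of 13 measured members 4 were higher in recovered trachea cells and 1 was lower, beside 1.41% and 1.10% of all genes, and the median difference was -0.11. The higher ones were Krt4, Mal, Krt13 and Tgm1, of which Krt4 had been picked with earlier results of these data known. Krt13, the partner of Krt4, was at 10.81 and 10.92 against 6.27 to 10.24 (median 9.18), a difference of 2.18, and oesophagus at 10.12 and 10.24 lay nearest. Mal, a membrane protein of apical transport, was at 7.91 and 8.21 against 4.58 to 7.0 (median 5.22), a difference of 2.52. Tgm1, the transglutaminase that cross-links the cornified envelope, was at 11.70 and 11.66 against 9.80 to 11.48 (median 10.38), a difference of 1.16 that fell to 0.93 without oral mucosa and 0.95 without foot pad. The lower member was Muc15, a membrane mucin, with -1.08, which came to -0.43 without foot pad and -0.87 without trachea array 1, both under 2-fold. Of these 5, Mal and Krt4 passed against each tissue. Against oesophagus alone 2 members were higher and 2 lower.

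Genes listed under epidermal differentiation were lower or not past the test. Of 26 listed genes 11 were measured. Of these 4 were lower and 0 higher, beside 1.10% and 1.41% of all genes, with a median of -0.51. Tgm1, which acts in the cornified envelope and was higher, is counted above under stratified mucosa. Dmkn, the secreted protein dermokine, was at 5.05 and 5.32 against 7.21 to 8.29 (median 7.64), a difference of -2.50 (adjusted p = 4.06e-07), and Sbsn (suprabasin) had -1.47. Krt1 and Krt10 were called lower, with -1.32 and -1.15, but these differences rested on foot pad, where Krt1 was at 8.70 and 8.76 while trachea was at 4.18 and 4.51 and the other 6 arrays at 4.24 to 5.01. Without foot pad the difference of Krt1 was -0.30 (adjusted p = 0.226), and those of Krt10 and Sbsn were -0.53 and -0.94, both under 2-fold. Dmkn passed against each tissue. Before transplantation 2 of the 11 were already lower and 0 higher, beside 0.813% and 1.08% of all genes, with a median of -0.6. The change of the difference from before to after passed upward for 1 member and downward for 0, with a median of 0.05. Of all genes 1.20% changed upward and 1.52% downward.

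Among 5 transcription factors that act in hair follicles, 2 were lower (1.10% of all genes were) and 0 higher, with a median of -0.87 that came to -0.37 without foot pad and -1.5 without oesophagus. Averaged over the list, recovered trachea was at 5.97 and 5.77 and oesophagus at 5.90 and 6.02, so these tissues overlapped, while the other 6 arrays were at 6.83 to 7.37. Hr (hairless), a corepressor needed for the hair cycle, was at 6.41 and 5.98 in recovered trachea cells and 7.63 to 9.15 (median 8.61) in the others, a difference of -2.32 ± 0.13 (adjusted p = 2.17e-08). The difference of Hr was already -1.51 before transplantation, when 1 of the 5 factors was lower (0.813% of all genes were). Hr rose by 1.20 in the mean of the other tissues after transplantation, and its change in trachea was 0.38 (not past the test). The change of the difference from before to after passed for 0 of the 5 factors. Lhx2, a factor of hair follicle stem cells, was at 5.70 and 5.31 against 5.74 to 7.39 (median 6.82). Its difference of -1.19 came to -0.97 without foot pad and to -0.99 without trachea array 2, both under 2-fold. Gata3, a factor of the inner root sheath, had -0.87. Of the 16 measured genes of the hair follicle and shaft 0 passed the test in either direction (median -0.10).

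Cell cycle genes were lower as a group. Of 31 measured members 13 were lower in recovered trachea cells and 0 higher, beside 1.10% of all genes lower, and the median difference was -0.97. All but 1 of the 31, Ccne1 (0.52), had a difference below 0, and in 23 both trachea arrays lay below all 8 others, beside the 6.75% of all genes given above. Top2a, the topoisomerase that untangles replicated DNA, was at 8.72 and 8.94 against 10.13 to 10.52 (median 10.29), a difference of -1.5 ± 0.09 (adjusted p = 4.13e-08). Kif11, a kinesin of the mitotic spindle, was at 7.23 and 7.32 against 8.50 to 9.08 (median 8.74), a difference of -1.5. Ccne2, a cyclin of S phase entry, was at 5.93 and 6.26 against 7.04 to 8.63 (median 7.85), a difference of -1.77, and Cdc6, a replication licensing factor, had -1.39. Ccne2, Kif11, Top2a and Foxm1 (-1.23), the transcription factor of mitotic genes, passed against each of the 4 tissues. Taken singly, 23 members were lower against vagina, 22 against oesophagus, 12 against oral mucosa and 4 against foot pad, where 2 were higher. Without vagina among the comparison tissues 7 members were called lower. Mcm2, Mcm5, Cdt1, Ccnb1, Cdk1 and Plk1, with differences of -1.14 to -1.0, were those that lost the call there.

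Averaged over the 31 genes, the trachea arrays were at 8.83 and 8.86 before and 8.19 and 8.26 after, while the others were at 7.48 to 9.23 before and 8.53 to 9.48 after. Before transplantation 0 members passed the test in either direction (median 0.17), and the change of the difference from before to after passed for 19 members, all lower (1.52% of all genes were). Within trachea 5 members fell (0.972% of all genes did), with a median change of -0.68. In the mean of the other tissues 0 passed, with a median change of 0.49, but that mean joined tissues that moved in opposite directions. The list average in foot pad went down, as in trachea, from 9.12 and 9.23 to 8.64 and 8.53. Oral mucosa, the lowest of the others before, went from 7.78 and 7.48 to 9.07 and 9.02. Vagina went from 9.02 and 8.94 to 9.47 and 9.48, and oesophagus from 8.93 and 8.83 to 9.40 and 9.39. The before difference and its change use the same mean. Fibroblast markers moved over the same interval. Within trachea 9 of 22 fell (median change -0.86), beside the 0.972% of all genes. In the mean of the others 6 fell and 1 rose (median -0.36), beside 0.689% and 0.276% of all genes. The part of fibroblast markers in the change of the cell cycle genes was not tested.

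**Figure D3:**
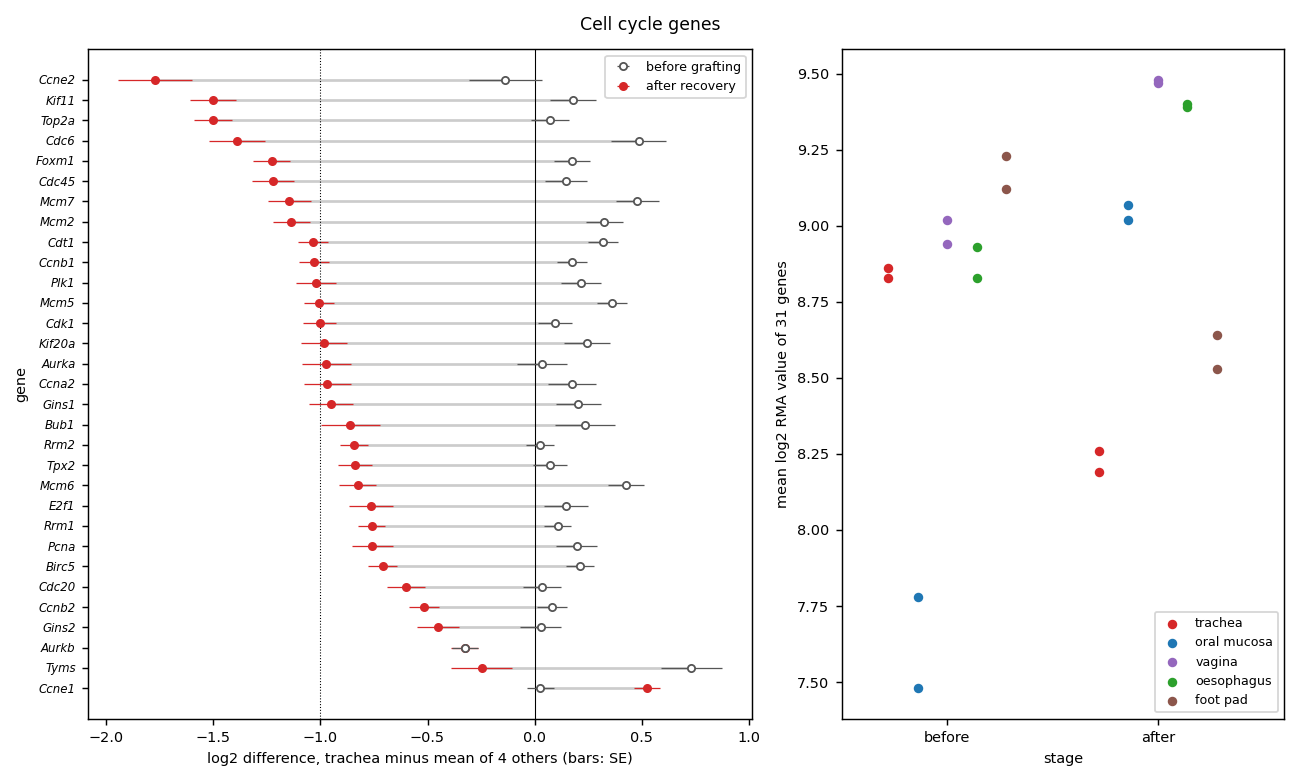
Left, log2 difference between trachea and the mean of the 4 other tissues (horizontal axis, bars SE) for 31 cell cycle genes before (open) and after (filled) transplantation, with a dotted line at a 2-fold lower level. Right, mean log2 RMA value of the 31 genes on each array by stage, 1 colour per tissue. The filled points lie left of 0 except for Ccne1, and both recovered trachea arrays, at 8.19 and 8.26, lie below the other 8 after arrays.

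Many promoters of cell cycle genes hold CCAAT boxes, which bind the factor NF-Y. For the whole cell cycle list, called or not, the 250 bases before the first listed RefSeq start (GRCr8) were searched. CCAAT was sought on both strands (as CCAAT or ATTGG). The shares found do not depend on the array values. The letters were found in 17 of the 23 list members with a promoter in the table (73.9%), beside 34.3% of all 27457 promoters of that length. The letters TTTGAA of the cell cycle genes homology region, on both strands, were found in 6 of 23 (26.1%) beside 16% of all. The windows of Top2a and Kif11, which passed against each tissue, are shown 5′ to 3′ on the strand of the gene, with CCAAT or ATTGG in capitals. That of Top2a lies on the minus strand at chr10:84473094-84473343 and holds 4 matches, and that of Kif11 lies on the plus strand at chr1:244536617-244536866 and holds 1.
Top2a: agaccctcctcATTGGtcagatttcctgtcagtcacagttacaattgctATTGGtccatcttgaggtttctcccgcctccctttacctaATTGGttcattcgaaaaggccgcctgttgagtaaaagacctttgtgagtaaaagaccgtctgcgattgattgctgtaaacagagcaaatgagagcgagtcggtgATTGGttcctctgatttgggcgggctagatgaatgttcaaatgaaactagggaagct
Kif11: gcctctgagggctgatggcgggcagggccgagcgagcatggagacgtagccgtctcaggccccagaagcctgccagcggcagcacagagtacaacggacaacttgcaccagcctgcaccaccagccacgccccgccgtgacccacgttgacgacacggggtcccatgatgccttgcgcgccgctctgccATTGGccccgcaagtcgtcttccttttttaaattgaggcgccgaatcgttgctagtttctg
A match of letters is a description of the sequence and not of binding in these cells.

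Signalling and defence genes gave smaller groups. Of 37 measured genes of the BMP and TGF-beta pathways 3 were higher, the ligands Tgfb2 (2.81), Bmp3 (2.12) and Gdf15 (1.30), and 2 lower, the secreted BMP and activin antagonist Fst (-1.03) and the follistatin-like Fstl1 (-1.36), with a list median of -0.13. Beside the 1.41% and 1.10% of all genes, these were 8.11% and 5.41% of the list. Fstl1 went just under 2-fold without oral mucosa, and Fst came to -0.55 without vagina, -0.73 without oesophagus, -0.98 without oral mucosa array 1 and -0.96 without trachea array 1. Tgfb2 was at 8.18 and 8.13 against 4.60 to 6.39 (median 5.22), and Gdf15 at 7.48 and 7.38 against 5.95 to 6.26 (median 6.14). Both trachea arrays lay above all 8 others in 4 members of the list, including these genes, beside 6.76% of all genes. Of 27 mucosal defence genes 5 (18.5%) were higher and 1 (3.70%) was lower (median 0.07). The cytokine gene Il36g, the antagonist gene Il36rn and the chemokine gene Ppbp, lower in trachea as described above, are not in this list. Il1a, an alarmin cytokine of epithelia, was at 7.20 and 7.14 against 3.82 to 5.77 (median 4.67), a difference of 2.41, and Tlr4, the receptor for bacterial lipopolysaccharide, at 8.26 and 8.29 against 6.52 to 7.24 (median 6.76). Il18 (1.80), Il33 (1.51) and Cxcl2 (1.14, and 0.40 without foot pad) were also called, but Il18 was higher in oral mucosa (7.82 and 8.21) than in trachea (7.06 and 7.31), and Il33 was at 11.71 and 11.73 in trachea and 11.70 and 11.69 in vagina. Duox1, an oxidase of the airway surface, was the lower member with -1.39.

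Of 40 genes of oxidant response and xenobiotic metabolism 4 were higher and 1 lower (median 0.05), or 10.0% and 2.5% of the list beside 1.41% and 1.10% of all genes. Gstm1, a glutathione S-transferase, was at 11.39 and 11.35 against 7.59 to 10.26 (median 8.85), a difference of 2.5 ± 0.09 (adjusted p = 3.6e-10), and Gstm2 at 9.28 and 9.18 against 7.82 to 8.10 (median 7.94). Both passed against each tissue, although genes of this family are alike in sequence and probes may not part them. Gsta4 (1.83) and Ephx1 (1.53, an epoxide hydrolase) were called too, with trachea inside the range of the other arrays, and Ephx1 came to 0.97 without oral mucosa. Aldh3a1 had -1.07, and this call was lost without oral mucosa (-0.42), foot pad (-0.51), foot pad array 2 (-0.99) or trachea array 2 (-0.97). Among 28 tetraspanin and four-transmembrane genes 4 (14.3%) were higher and 0 lower (median 0.15), namely Tspan8, Upk1b (a uroplakin, 2.24), Pmp22 (1.51) and Tspan13 (1.08, and 0.86 without oral mucosa). Among 24 genes of LIM-domain proteins 3 (12.5%) were higher and 0 lower (median 0.10), namely Crip1, Lmo7 (1.43) and Ablim1. The 1.00 of Ablim1 lay at the threshold and went under it in 7 of the alternatives that kept arrays as the samples. Tspan8 and Crip1 had been picked with earlier results of these data known, so their calls in these lists are not separate findings. Tspan8 is also counted among the simple epithelium genes.

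Genes of the mature airway gave no calls in the recovered cells. Of 15 measured secretory and gland genes and 12 ciliated cell genes 0 passed the test in either direction after transplantation. Beside 1.41% of all genes higher and 1.10% lower, 0 is near that share in lists of this size. The medians were -0.06 and -0.03, and differences ran from -0.69 to 0.38 and from -0.19 to 0.53. The secretory and gland list averaged 4.66 and 4.64 in the recovered trachea arrays. That is under 4.77, the level that 40% of probe sets lie below, where a measured difference may understate the true one. Of 19 airway and foregut transcription factors 2 (10.5%) were higher and 0 lower (median 0.11), beside 1.41% and 1.10% of all genes. Sox2, which marks the foregut and airway, was at 8.28 and 8.51 against 6.58 to 8.23 (median 7.06), a difference of 1.15, and Pax9, a pharyngeal and oesophageal factor, at 8.53 and 8.45 against 6.08 to 8.58 (median 7.03), a difference of 1.29. Without foot pad these were 0.94 and 0.98, under 2-fold. Of 13 basal layer genes 0 passed.

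After transplantation few markers of other cell types differed between trachea and the others. Of 22 fibroblast genes 1 (4.55%) was higher, beside 1.41% of all genes, namely Sparc, a secreted matrix protein that epithelial cells also make. Sparc was at 9.78 and 9.67 against 6.41 to 10.41 (1.34, and 0.74 without vagina). The defining collagens were level, with Col1a1 at 6.77 and 6.84 against 6.66 to 7.22. Averaged over the list, the trachea arrays were at 6.44 and 6.35 and the others at 6.19 to 6.78. Before transplantation 6 fibroblast genes had been higher in trachea (Vim, Col1a1, Col1a2, Col3a1, Tagln and Postn), beside 1.08% of all genes. The list was then at 7.40 and 7.29 against 6.08 to 7.50. From before to after 9 of the 22 fell within trachea (0.972% of all genes did), among them Col1a1 (-2.46). The difference changed downward in 7 of the fibroblast genes (1.52% of all genes did). The part of the fibroblast genes in the changes of the trachea cells from before to after was not tested. Of 19 leukocyte genes 1 (5.26%) was higher, beside 1.41% of all genes, namely Cd68 (1.35), a lysosomal protein. Ptprc was at 3.54 and 3.46 against 3.21 to 3.63. Of 15 chondrocyte, 9 thyroid, 9 neuroendocrine, 11 endothelial, 8 melanocyte and 11 muscle genes 0 passed in either direction.

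Whether a difference was already there before transplantation was asked with the before arrays. Both differences come from separate arrays, but all 20 arrays shared 1 estimate of the spread and 1 choice of probe set. A fit of the 10 after arrays alone gave the same 205 and 160 genes. Before transplantation 157 genes were higher (1.08%) and 118 lower (0.813%) in trachea. The genes higher at both stages numbered 73, which is 35.6% of those higher after and 46.5% of those higher before. The genes lower at both stages numbered 34, or 21.2% of those lower after and 28.8% of those lower before, and 1 gene in each direction, Armcx6 and Snurf, was called the opposite way before. The 205 genes higher after had a median difference of 0.62 before, and the 160 lower after had one of -0.12. Across all 14506 genes the after and before differences correlated with a Pearson's r of 0.44, which describes genes and not independent replicates.

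**Figure D4:**
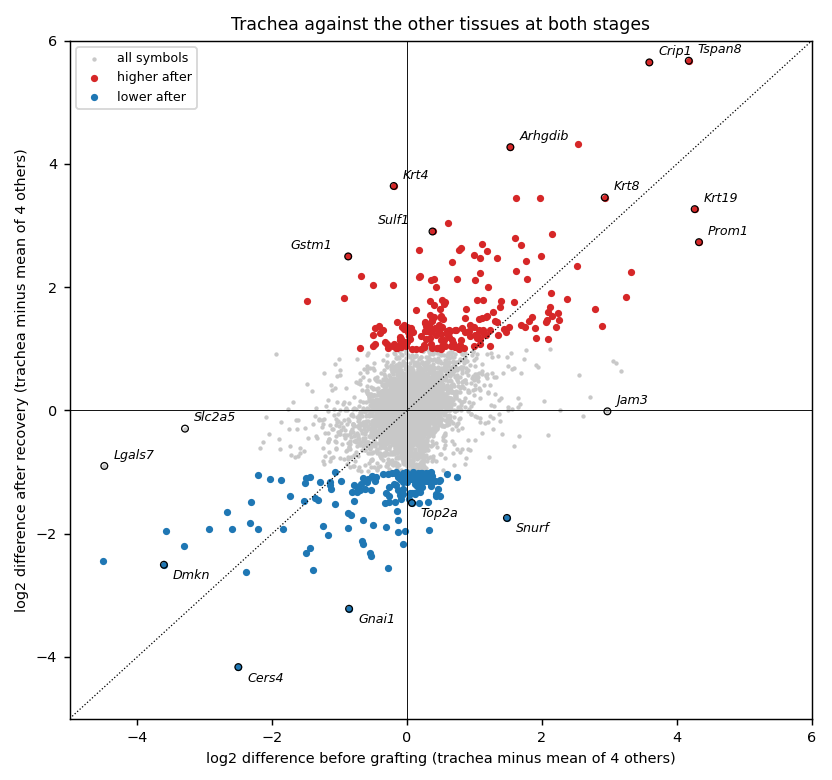
Log2 difference between trachea and the mean of the 4 other tissues before transplantation (horizontal axis) and after recovery (vertical axis), 1 point per gene for 14506 genes, with genes called after in red (205 higher) and blue (160 lower) and a dotted line where both differences are equal. Tspan8 and Crip1 lie far to the upper right, Krt4 lies at -0.20 before and 3.64 after, and Lgals7 and Slc2a5 lie at -0.90 and -0.30 after but below -3 before.

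The difference itself changed from before to after in 394 genes, 174 upward (1.20%) and 220 downward (1.52%), together 2.72%. Without foot pad as a comparison tissue 322 changed upward, and without oral mucosa 140 changed downward. The largest upward change was that of Krt4, at 3.84 ± 0.20 (SE, adjusted p = 5.84e-08). In trachea its level changed by 0.77, short of 2-fold, and in the mean of the other tissues it fell by 3.07. Gstm1 had 3.37, rising by 1.80 in trachea and falling by 1.57 in the others. Armcx6 had 3.26, rising by 2.21 in trachea and falling by 1.05 in the others. In Lgals7 (galectin-7 of stratified epithelia, 3.59) the change lay mostly in the trachea cells, which went from 5.90 and 4.63 to 9.84 and 9.71 while the others were at 8.10 to 10.58 before and 9.79 to 11.90 after. Slc2a5, the fructose transporter, went from 5.95 and 5.44 to 8.73 and 8.73 in trachea, and the mean change of the others was 0.04. Both genes were thus far lower in trachea before transplantation, and after it their differences of -0.90 and -0.30 were under 2-fold, although that of Lgals7 came to -1.19 without oesophagus. Sprr3, a cornified envelope protein, rose by 1.14 in trachea and fell by 1.85 in the others.

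The largest downward changes were those of Snurf, Jam3, Mgp, Plscr2, Tbc1d9 and Prtfdc1. Snurf, which shares its transcript with the imprinted gene Snrpn, went from 9.11 and 8.94 to 4.90 and 4.84 in trachea, a fall of 4.15, while the others were at 4.62 to 9.02 (median 6.37) after. Recovered vagina cells, at 5.22 and 4.62, were as low. Jam3, a junctional adhesion molecule, went from 7.82 and 8.04 to 5.02 and 4.77, and Mgp, the matrix Gla protein, from 8.07 and 8.12 to 4.59 and 4.81. After recovery both lay at the level of the other tissues, with differences of -0.01 and -0.10. Plscr2 and Tbc1d9 fell by 2.89 and 2.78 in trachea. In Prtfdc1 the trachea change was -0.82 and the others rose by 1.67.

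Some of the leading differences were larger after transplantation than before. Crip1 had 3.59 before, when the trachea arrays were at 9.51 and 9.23 and the others at 4.85 to 7.64 (median 5.29). It rose by 1.44 in trachea (adjusted p = 2.64e-05), and the change of its difference was 2.06 (adjusted p = 2.9e-06). Tspan8 had 4.18 before and a change of 1.5, which came to 0.93 without oral mucosa and 0.99 without vagina, both under 2-fold. In Arhgdib the trachea level moved by 0.06 while the others fell by 2.68, so the difference went from 1.53 to 4.27. Sulf1 rose by 1.59 in trachea, and its difference went from 0.38, under 2-fold, to 2.90. Krt19 and Prom1 went the other way, from 4.26 to 3.27 and from 4.33 to 2.73.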

How the data were processed

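The authors deposited log2 values of 29215 probe sets on 20 arrays (Affymetrix Rat Gene ST, 100 ng of total RNA), made with RMA in Affymetrix Expression Console. The software version and annotation build were not given in the sources used here. RMA brings arrays to 1 distribution, which can hide a global shift. Array medians lay between 5.31 and 5.55. Depth does not apply to arrays, and the number of arrays limits the precision. Groups were taken from the labels.

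Probe sets with exactly 1 gene symbol in the platform annotation (15310) were named, 323 with several symbols were not, and 13582 are unnamed here. Of 14506 symbols, 527 had over 1 probe set, and the one with the highest mean was used. All 10 groups were fitted with limma 3.58.1 (lmFit and eBayes, R 4.3.3), with 10 residual degrees of freedom, and p-values were adjusted by Benjamini-Hochberg over all probe sets. A gene was called, and is said to have risen or fallen, at an adjusted p under 0.05 and a fold above 2. The fit was tested on simulated data. The mean change of the other 4 tissues was added after the data were seen. Promoter sequences are RefSeq's.

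Named genes were the 15 largest differences in each direction with both trachea arrays outside the range of the others, Krt4, Tspan8 and Crip1, up to 4 called members per list, cell type markers, the 6 largest changes of the difference in each direction, and the 6 largest in each direction that passed against all 4 tissues. Other list members named complete a count. These members and lists were chosen with earlier results of these data known. Alternatives were other samples in the fit, centring, a filter on dim probe sets, the variance model, the replicate number as a block, the comparison tissues, the probe set per symbol and leaving out arrays.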

Additional observations from a re-analysis of the deposited data

Results flagged for a closer look

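The difference between trachea and the mean of the other tissues was not the same before and after transplantation in the genes named for it. By limma's interaction the change from before to after (log2) was 3.84 in Krt4, 3.59 in Lgals7, 3.37 in Gstm1, 3.26 in Armcx6, 3.00 in Slc2a5, 2.99 in Sprr3, 2.06 in Crip1 and 1.5 in Tspan8. It was -3.23 in Snurf, -2.98 in Jam3, -2.70 in Mgp, -2.54 in Plscr2, -2.5 in Tbc1d9 and -2.5 in Prtfdc1. The titles' Roman numerals differ between the stages in trachea too (V before, I after), but the labels do not explain them. If they are passages, passage and transplantation cannot be told apart.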

How the results depend on the processing

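No named difference between trachea and the others changed its direction under any alternative while called. With tissue means as the samples, 3 genes were higher and 0 lower in recovered trachea cells (205 and 160 otherwise), with 1 simple epithelium gene higher (8) and 0 cell cycle genes lower (13). Without foot pad as a comparison tissue, 322 genes changed upward from before to after (174), and without oral mucosa 140 changed downward (220). Without vagina 7 cell cycle genes were lower. The causes were not tested. The list counts and those of trachea after against before under alternatives were added after seeing the data. Replicate numbers did not pair the samples (45 pairs of groups, r of same-numbered arrays -0.409 to 0.399, median 0.002, 3 over 0.1). The replicate block changed no call and left 205 higher and 160 lower. Leaving out each array gave 200 to 211 higher and 148 to 172 lower after, 150 to 162 and 109 to 126 before, 165 to 187 upward and 208 to 230 downward changes, 66 to 73 higher and 26 to 35 lower against all 4 tissues, 88 to 101 higher and 131 to 142 lower in trachea after than before, 8 simple epithelium genes and 10 to 15 cell cycle genes. Of 91 called genes, those of the naming rule and all called list members, 63 kept their call in every alternative with arrays as samples. Only 2 cultures per group and no detection calls limit what low values can show.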

Other observations

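Further lists held few genes that differed in recovered trachea cells, and single calls in them stand beside 1.41% of all genes higher and 1.10% lower. Of 23 prostaglandin genes 2 were higher and 0 lower (median -0.01). Ptgs2, the inducible cyclooxygenase, was at 9.46 and 9.55 against 5.92 to 8.0 (median 7.12), a difference of 2.42, and passed against each tissue. Hpgd, an enzyme that degrades prostaglandins, had 1.25 and did not pass against oral mucosa (0.68). Of 22 retinoid genes 3 were higher, Dhrs3 (1.11), Crabp2 (1.03) and Rbp2 (1.02), and 1 was lower, Lrat (-1.16), which stores retinol as esters. Each of these 4 went under 2-fold when 1 comparison tissue was left out. Without vagina Dhrs3 came to 0.78 and Crabp2 to 0.81, without oral mucosa Rbp2 to 0.85 and without foot pad Lrat to -0.77. The retinol dehydrogenase gene Sdr16c5, described above as lower against each tissue, is not in this list.

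Of 21 homeobox cluster genes 0 were higher and 2 lower, Hoxa5 (-1.37) and Hoxa7 (-1.32), which help set position along the body axis. Hoxa7 was at 5.36 and 5.29 against 5.59 to 7.13 (median 6.93), and Hoxa5 at 4.69 and 4.83 met the lowest of the others at 4.80. Of 37 Wnt pathway genes 1 (2.70%) was higher, the secreted antagonist Sfrp1 (1.19), and of 29 interferon-induced genes 1 (3.45%) was, both near the share of all genes, Ifit2 being at 6.29 and 6.58 against 3.93 to 5.0 (median 4.20), and it passed against each tissue. Of 26 ion transport genes 1 was lower, the carbonic anhydrase Car2 (-1.93). Of 24 Notch pathway genes, 23 claudin and tight junction genes and 10 MHC class II genes 0 passed in either direction by limma.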
